A study of Mus musculus with 8 samples.

Results

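A set of 6 genes that cells switch on when translation initiation factor eIF2α is phosphorylated were followed in mouse liver: Nupr1, Ddit4, Sesn2, Eif4ebp1, Vldlr and Stc2. They were chosen by symbol as targets of the integrated stress response that restrain growth or change lipid uptake, and all 6 were found among the 16133 genes of the deposited expression table. Liver polyadenylated RNA was sequenced before (input) and after (IP) precipitation with an antibody against N6-methyladenosine (m6A), a methyl mark that the METTL3-METTL14 enzyme writes into mRNA. The WT group were METTL14f/f mice, which carry a floxed Mettl14 gene, and the KO group were METTL14Alb mice, described in the design text as a liver knockout (LKO). Every animal of both groups had been injected with tunicamycin at 2 mg/kg for 24 hours, so each value below is a difference between stressed livers and no unstressed level was measured. With 2 genotypes and 2 kinds of library (input and IP) there were 4 groups of 2 libraries, 8 in all. Age, sex, strain and Cre line of the mice were not given in the sources used here. Since nothing in the labels ties the 2 libraries of a group to different animals, p-values reflect just the spread among libraries, which may be technical.

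Tunicamycin blocks N-linked glycosylation, so misfolded proteins build up in the endoplasmic reticulum (ER) and the kinase PERK phosphorylates eIF2α. General translation then falls while the transcription factor ATF4 is made, and ATF4, often with CHOP (Ddit3), induces a set of genes that adapt the cell or help to kill it. Among these, DDIT4 (REDD1) and Sestrin 2 hold back the growth kinase complex TORC1, 4E-BP1 (Eif4ebp1) binds the cap-binding protein eIF4E and holds back cap-dependent translation, NUPR1 is a small chromatin protein of stressed cells, the VLDL receptor takes up triglyceride-rich lipoproteins, and stanniocalcin 2 is a secreted glycoprotein that inhibits the protease PAPP-A.

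The values rest on the authors' table of 1 comparison of the 4 input libraries and on their m6A peak list for each genotype. The digits of the deposited means allowed whole reads of single input libraries to be worked out. Which replicate number each library has cannot be told, so the pairs are named WT A and WT B, and KO A and KO B. Normalized counts are reads divided by the size factor of the library, and estimated library totals ran from 12316926 to 16814359 reads. The table does not name the numerator of its fold change. It was read as KO over WT because, of 347 genes with a mean of at least 100 and a log2 change above 2, 156 had peaks only among those of KO and 0 only among those of WT, against 30 and 46 of the 403 genes below -2. Mettl14 itself stood at 79.8 and 99.7 normalized counts in the WT libraries, and 64.6 and 62.0 in the KO libraries, and in the authors' deposited table its log2 change is -0.50 ± 0.41 (SE; adjusted p = 0.342), which does not check the labels by itself. Scaling libraries to estimated totals instead of the authors' size factors moved the median log2 change of all genes to 0.87 from 0.066 in limma and turned Mettl14 to 0.32. At the authors' size factors, 6 of 7 markers of bile duct and progenitor cells were higher in KO and 0 lower (summed normalized counts of 3433 to 4457 in KO and of 647 to 796 in WT, with Krt7 at 0 in WT B and Cldn4 at 0 in WT A). Of 8 stellate cell and fibroblast markers 5 were higher and 0 lower (7581 to 10523 in KO, 3522 to 4511 in WT). Of 7 macrophage markers 1 was higher and 2 were lower, of 7 endothelial markers 0 and 1, and of 4 neutrophil and 4 lymphocyte markers 0 and 0. All 7 hepatocyte markers were abundant, with 6 lower and 1 higher in KO. Whether these shifts take part in the results below was not tested.

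Regulatory sequence before the transcription starts was read for 5 of the 6 genes (6 RefSeq windows, GRCm38.p6). Each window spans 250 bases before a start and 50 after it; Eif4ebp1 was not matched. ATF4 and its C/EBP partners bind composite elements with the core letters TGATGNAA, in which N is any base. On either strand that core was present in the windows of Nupr1 and Vldlr, and in 3.97% of 32851 mouse windows of the same length. The 2 stretches shown hold the only matches found in the 6 windows. Nupr1 and Vldlr also had the highest fold changes of the 6 genes, and whether the element bears on these was not tested. The Nupr1 stretch is the whole run of 250 bases before its start (chr7:126625471-126625720, minus strand), and the Vldlr stretch is 30 bases around the match before the second of its 2 starts (chr19:27216809-27216838, plus strand). Capitals mark the element, read here on the opposite strand as TTGCATCA, and in Nupr1 also the E-box CACGTG, which 7.15% of windows hold.
Nupr1: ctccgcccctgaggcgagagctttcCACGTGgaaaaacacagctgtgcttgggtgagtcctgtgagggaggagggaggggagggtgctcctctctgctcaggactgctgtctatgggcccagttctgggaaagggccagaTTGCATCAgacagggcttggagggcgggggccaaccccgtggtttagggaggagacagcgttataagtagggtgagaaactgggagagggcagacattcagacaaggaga
Vldlr: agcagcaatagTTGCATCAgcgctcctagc
The Nupr1 match lies 110 to 103 bases before its start. The Vldlr match lies 200 to 193 bases before the second start, inside the gene model and after the first start. The window of the first Vldlr start held no match. The ER stress element (CCAAT followed after 9 free bases by CCACG) was in 0.119% of mouse windows and the cyclic AMP response element (TGACGTCA) in 1.79%. They were searched on both strands as well, and neither was found in a window of the 5 genes that had one. The matches shown do not overlap each other, and a match is a run of letters, not a measured binding site.

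Of the 6 genes, 4 were higher in KO liver (Nupr1, Vldlr, Eif4ebp1 and Sesn2), 0 were lower and 2 did not pass the test (Ddit4 and Stc2). A gene was called at an adjusted p under 0.05 from DESeq2 in the authors' deposited table, which called 20.4% of 14257 tested genes higher and 22.2% lower. At an unadjusted p under 0.05 that table also gave 4 higher and 0 lower, beside 24.1% and 24.8% of all tested genes. Limma on the recovered counts called 4 higher and 0 lower, beside 25.3% and 24% of 14076 genes. Its unadjusted counts were 5 and 0, beside 29.4% and 27%. Without KO A or KO B limma called 0 of 14076 genes (5065 and 5409 at an unadjusted p under 0.05), so these 4 genes lost their calls too (adjusted p = 0.0614 to 0.148). Scaled to estimated totals, limma gave log2 changes of 3.84 for Nupr1, 3.24 for Vldlr, 2.04 for Eif4ebp1 and 1.57 for Sesn2, beside a median of 0.87 over all genes. Both KO libraries lay above both WT libraries for 5 of the 6 genes and below them for 0, as for 40% and 38.9% of the 12666 genes with a mean of at least 10, a mean that Stc2 did not reach. The log2 changes of the 6 ran from 0.37 to 3.01 with a median of 1.52, against a median of 0.046 over all tested genes. In bulk liver, fewer cells of a type and less RNA per cell cannot be told apart.

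**Figure D1:**
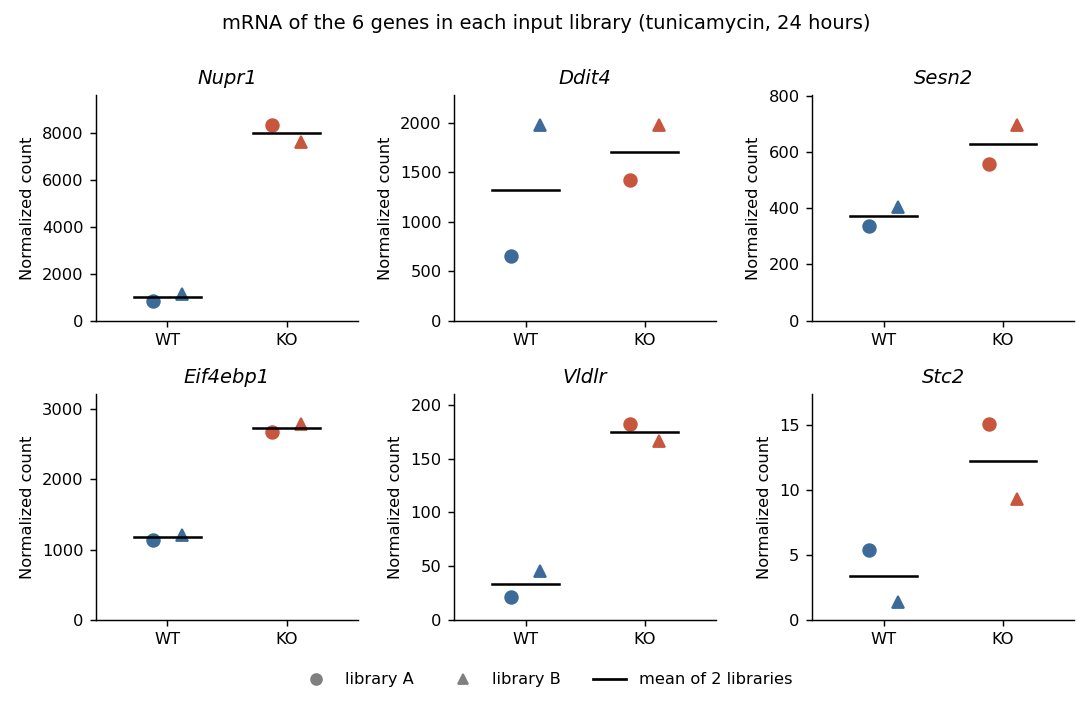
Normalized counts (y axis, linear from 0, 1 panel per gene) of the 2 WT and 2 KO input libraries, with circles for library A, triangles for library B and black lines for the mean. Nupr1, Eif4ebp1, Vldlr, Sesn2 and Stc2 have both KO libraries above both WT libraries, while Ddit4 in WT B (1981) is level with the higher KO library (1979).

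Nupr1, the chromatin protein, had the highest rise of the 6 genes. It measured 852 normalized counts in WT A, 1139 in WT B, 8362 in KO A and 7619 in KO B, so the lower KO library was far above the higher WT library. Means were 7990.4 ± 526 in KO and 996 ± 203 in WT (SD, n = 2 each), an 8.03-fold difference. For Nupr1 the authors' deposited table lists a log2 change of 3.01 ± 0.20 (SE, adjusted p = 6.06e-49), above that of 95.3% of tested genes. Nupr1 is a short gene (chr7:126623246-126625470, minus strand, mm10) with its peaks at the 5′ end. The single WT peak covered bases 49 to 145 of the gene, with an enrichment of 2.04, near the bottom of the WT list (percentile 3.67). The single KO peak had blocks at bases 1 to 147 and 437 to 530, an enrichment of 10.03 and percentile 39.5 in the KO list, and it covered all 97 bases of the WT peak. Enrichment is the authors' value, read here as the ratio of precipitated over input RNA and given once per peak and genotype, so the lists offer no replicate error and no test between genotypes. Predicted gene models overlap Nupr1 (Gm39087) and Vldlr (Gm35438), and reads could not be told apart there if counting ignored strand, a setting not given in the sources used here.

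Ddit4, the TORC1 brake, did not pass the test, and its level turned on which WT library was read. Ddit4 measured 653 normalized counts in WT A, 1981 in WT B, 1418 in KO A and 1979 in KO B. The WT libraries were 3.03-fold apart, WT B was the highest of the 4, and the groups overlapped. For Ddit4 the authors' deposited table lists a log2 change of 0.37 ± 0.78 (SE, adjusted p = 0.747). In limma it was 0.56 over all 4 libraries (adjusted p = 0.343), -0.24 without WT A and 1.36 without WT B. With 1 WT library left, the spread comes from the 2 KO libraries alone, which leaves out the gap between WT A and WT B. Scaled to estimated totals, the log2 change of Ddit4 in limma was 1.38 and passed (adjusted p = 0.0281), in a fit that called 58.7% of all genes higher. The same lean toward WT B was seen in other stress response genes: of 31 listed targets above a mean of 10, 23 had more in WT B, 8 of the 31 were at least 2-fold apart between the WT libraries, and the median log2 ratio of WT B to WT A was 0.44. Over all 12666 genes above that mean 50.3% were higher in WT B, 7.39% were at least 2-fold apart and the median ratio was 0.0032. All 4 neutrophil markers were also at least 2-fold higher in WT B, with summed normalized counts of 303 against 121, and their part in the Ddit4 values was not tested. Between KO B and KO A 0 of the 31 targets were 2-fold apart.

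Ddit4 held the most peaks of the 6 genes, 3 in each list, and each WT peak overlapped a KO peak. The gene spans chr10:59949675-59951770 on the minus strand. At its 5′ end the WT peak covered bases 1 to 49 (enrichment 7.57) and the KO peak had blocks at bases 1 to 73 and 198 to 322 (4.25). The middle peak had the same ends in both lists, bases 957 to 1055, with enrichments of 7.48 in WT and 4.89 in KO. The last peak lay at bases 1205 to 1352 in WT (3.62) and 1254 to 1451 in KO (3.52). These were low values in both lists, at percentiles 9.94 to 23.2 of the WT list and 7.18 to 14.9 of the KO list.

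Sesn2, which encodes the leucine-sensing TORC1 inhibitor Sestrin 2, rose by less than Nupr1. It measured 337 normalized counts in WT A, 405 in WT B, 558 in KO A and 698 in KO B, without overlap of the groups. For Sesn2 the authors' deposited table lists a log2 change of 0.76 ± 0.24 (SE, adjusted p = 0.00501), a 1.69-fold difference. At the authors' size factors limma gave 0.59 to 0.91 without single libraries.

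The peaks of Sesn2 near its 3′ end had the highest enrichment among the 6 genes in either list. The gene spans chr4:132492804-132510456 on the minus strand, and near its 3′ end WT had peaks at bases 16765 to 16863 (enrichment 423, percentile 97.6) and 17060 to 17207 (48.3, percentile 68.2). KO had 1 peak there, bases 16815 to 17256 (21.1, percentile 68.5), which overlapped both WT peaks by 49 and 148 bases. KO had a further peak near the 5′ end, bases 198 to 246 (6.36, percentile 22.7), which WT lacked. Positions count from the first base of the RefSeq gene model with introns included, and exons were not analysed here.

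Eif4ebp1, which encodes the translation inhibitor 4E-BP1, rose with the least spread between libraries of the 6 genes. Eif4ebp1 measured 1136 normalized counts in WT A, 1211 in WT B, 2677 in KO A and 2793 in KO B, so libraries of 1 genotype lay within 1.07-fold and the genotypes did not overlap. For Eif4ebp1 the authors' deposited table lists a log2 change of 1.22 ± 0.18 (SE, adjusted p = 3.28e-10), or 2.33-fold. Without each library in turn limma gave 1.17 to 1.27 at the authors' size factors, and with all libraries 1.66 when scaled to recovered totals. Its peaks sat at different places in the 2 genotypes. The gene spans chr8:27260327-27275656 on the plus strand, and the WT peak lay at bases 14939 to 14987, which is 343 bases short of the 3′ end (enrichment 3.73). The KO peak joined a block at bases 51 to 225 with one at 12998 to 13116 (8.95), and shared 0 bases with the WT peak.

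Vldlr, the receptor that takes up triglyceride-rich lipoproteins, rose from a low level. Vldlr measured 21.6 normalized counts in WT A, 45.8 in WT B, 182 in KO A and 167 in KO B. The WT libraries were 2.12-fold apart, yet both lay far below KO. For Vldlr the authors' deposited table lists a log2 change of 2.39 ± 0.42 (SE, adjusted p = 1.39e-07), a 5.26-fold difference. In limma it was 1.91 without WT A and 2.96 without WT B, fits that take their spread from the 2 KO libraries alone. Its log2 change was 2.37 without KO A and 2.50 without KO B, where its call was lost. The gene (chr19:27216480-27254231) had 0 peaks in either list. Among 3236 genes with a mean of 50 to 200, 3.4% had a peak in WT, 17.6% in KO and 1.82% in both.

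Stc2, which encodes the secreted PAPP-A inhibitor, was barely detected. It had 5 reads in WT A, 1 in WT B, 19 in KO A and 11 in KO B (5.39, 1.35, 15.1 and 9.35 after normalization). All 4 libraries were at low counts, although KO lay above WT. Scaled by the summed size factors of each genotype, the ratio of summed counts was 3.43. Its exact Clopper-Pearson 95% interval, scaled alike, was 1.41 to 10.1 and covers counting error only. For Stc2 the authors' deposited table lists a log2 change of 1.83 ± 1.27 (SE, adjusted p = 0.252). In limma Stc2 missed the threshold over all 4 libraries at the authors' size factors (adjusted p = 0.0791). It passed when scaled to recovered totals (2.096, adjusted p = 0.0387), in a fit that called 41.5% of all genes higher. Its log2 change was 2.46 without WT A, where WT held 1 read, and 1.02 without WT B. The gene (chr11:31359441-31370061) had 0 peaks, as did all of the 3286 genes with a mean under 10.

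**Figure D2:**
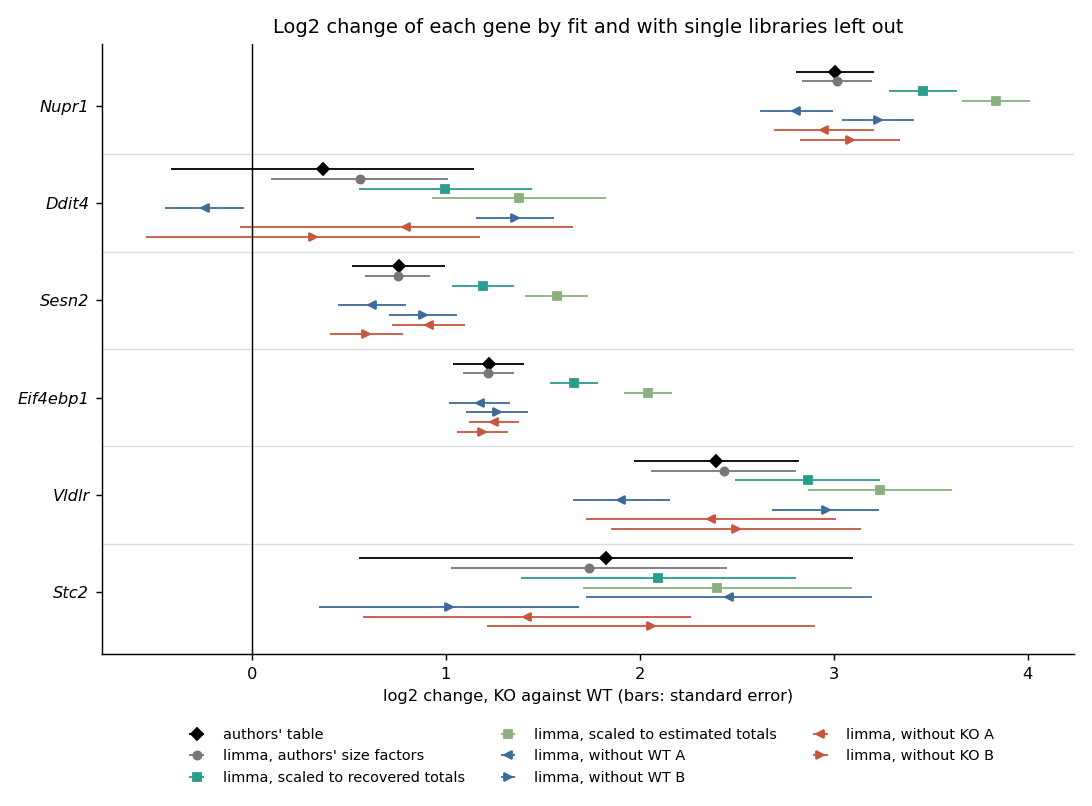
Log2 change of KO against WT (x axis, bars are standard errors) for each gene in the authors' table and in limma fits with other scaling or without single libraries. Ddit4 runs from -0.24 without WT A to 1.36 without WT B, while Eif4ebp1 stays between 1.17 and 1.27 in the fits without 1 library.

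Across the 4 genes with peaks, 6 of 7 WT peaks overlapped a KO peak and 5 of 7 KO peaks overlapped a WT peak. The same shares over all peaks were not worked out, so these counts cannot be called high or low. Over the whole lists peaks had a median of 49 bases in WT and 99 in KO. Each of Nupr1, Ddit4, Sesn2 and Eif4ebp1 had a peak in both lists, as had 44.9% of 4583 genes with means of 400 to 5000 (47.6% in the WT list and 80.2% in the KO list). Peaks of 2 blocks were found in KO (3 of 7) and not in WT (0 of 7); 29.2% of all KO peaks and 20.5% of all WT peaks had more than 1 block. In KO 4 of the 7 peaks began within 250 bases of the 5′ end of the gene and in WT 2 of 7, against 24.6% and 23.2% of all peaks with a gene model. Differences between the lists in these small counts were not tested. In all, 12290 KO peaks and 5586 WT peaks were deposited, and the depth of the IP libraries was not given in the sources used here.

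**Figure D3:**
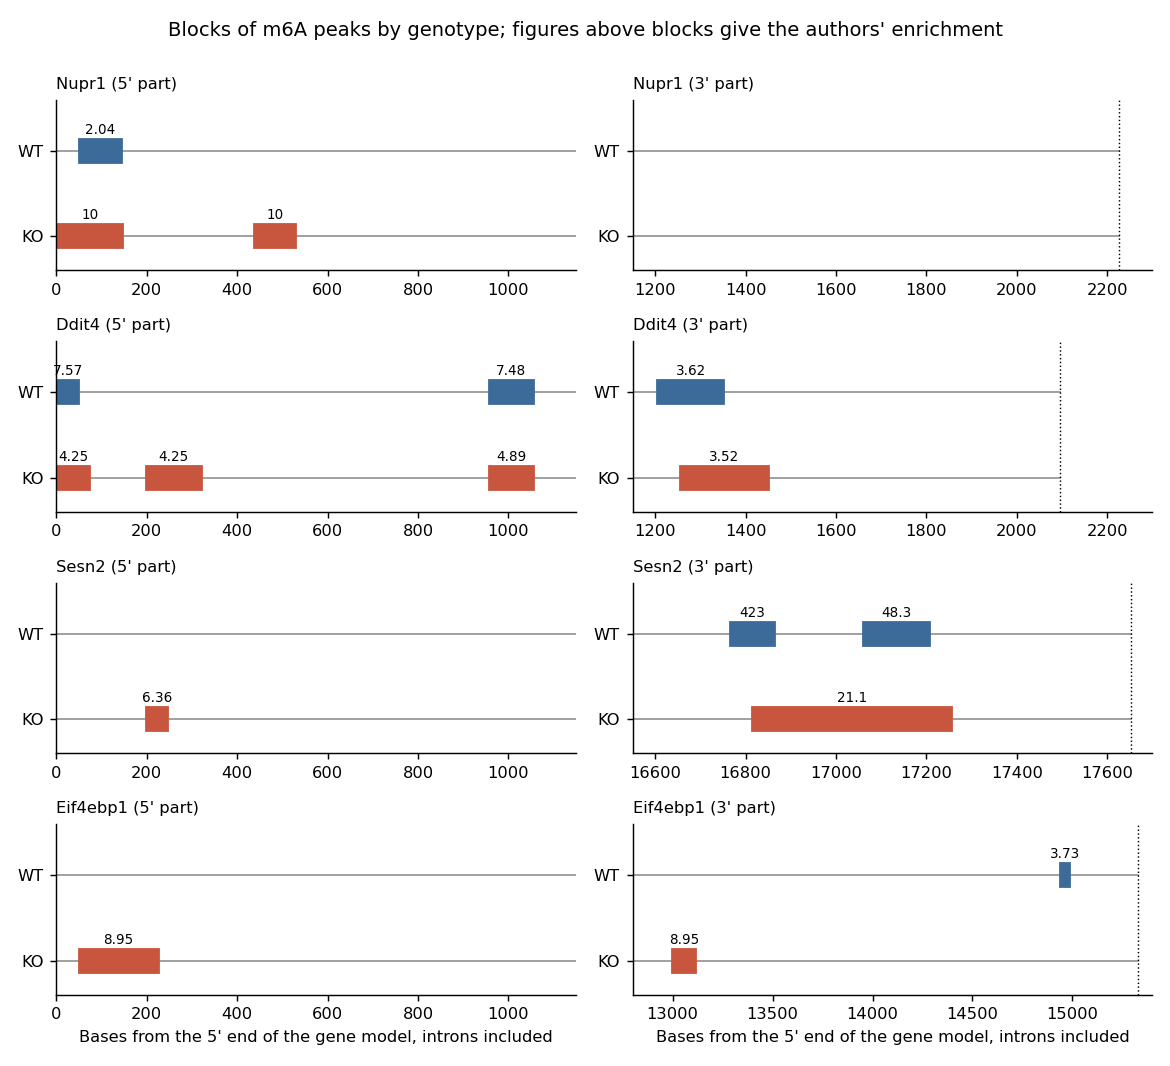
Peak blocks (boxes, WT above and KO below) of Nupr1, Ddit4, Sesn2 and Eif4ebp1 along the gene, as bases from its 5′ end on the x axis with introns included; each row has a left panel for the 5′ part and a right panel for the 3′ part, numbers above boxes are the authors' enrichment and the dotted line is the 3′ end. WT and KO blocks of Nupr1 and Ddit4 overlap at the 5′ end, and the KO peak there has a further block that WT lacks. Sesn2 has its high values (423 and 48.3 in WT, 21.1 in KO) near the 3′ end, and the Eif4ebp1 boxes of WT and KO do not touch.

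Relatives of the 6 genes differed among themselves. Of 9 relatives, 5 were higher in KO, 1 was lower and 3 did not pass, beside 20.4% higher and 22.2% lower among all tested genes. Ddit4l (REDD2), a TORC1 brake like Ddit4, measured 6.47 and 5.39 normalized counts in the WT libraries, against 112 and 162 in the KO libraries. For Ddit4l the authors' deposited table lists a log2 change of 4.52 ± 0.62 (SE, adjusted p = 4.55e-12), above that of any of the 6 genes, while Ddit4 itself was not called. Both other sestrins rose: Sesn3 by 2.59 ± 0.41 (adjusted p = 3.39e-09) and Sesn1, a p53 target, by 0.92 ± 0.35 (adjusted p = 0.0250) in the authors' deposited table. The WT libraries held 28.0 and 26.9 normalized counts of Sesn3, the KO libraries 155 and 176.

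The other relatives of 4E-BP1 did not pass the test. For Eif4ebp2 the authors' deposited table lists a log2 change of 0.34 ± 0.21 (SE, adjusted p = 0.190). It measured 592 and 638 normalized counts in the WT libraries, and 763 and 789 in the KO libraries. Eif4ebp3 was the least steady, at 5593 and 1138 in the WT libraries, 803 and 3015 in the KO libraries, so that both genotypes were over 3-fold apart within themselves (adjusted p = 0.651 in the authors' deposited table). Eif4ebp2 had 1 peak in the KO list, at bases 221 to 368 (enrichment 34.0), and 0 in WT.

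Lrp8, the closest relative of Vldlr, rose from a total of 2 reads in WT to 42 in KO (adjusted p = 0.0235 in the authors' deposited table). Scaled by the summed size factors of each genotype, the ratio was 14.4 (exact Clopper-Pearson 95% interval 3.75 to 123, counting error only). Stc1 likewise rose from 4 reads to 56 (adjusted p = 0.0110 in the authors' deposited table), a ratio of 9.62 with the same scaling (3.55 to 36.5). Nupr1l was at 6 reads in KO and 11 in WT and was not called (adjusted p = 0.493 in the authors' deposited table).

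The wider integrated stress response held genes called in either direction. Of 35 tested targets other than the 6 genes, 12 were higher in KO, 6 were lower and 17 did not pass, with a median log2 change of 0.43 against 0.046 over all tested genes. Among all tested genes 20.4% were higher and 22.2% lower, and the share of lower targets was near that background. Of the 6 lower ones, Atf5, Cth, Gpt2 and Herpud1 were too abundant for their counts to be recovered, and limma, fitted without these 4, called 16 higher and 3 lower, beside 25.3% and 24% of all genes. Risers included the death receptor Tnfrsf10b at 5.38 ± 0.71 (SE, adjusted p = 4.83e-13) and the transporter subunit Slc3a2 at 1.95 ± 0.22 (adjusted p = 4.32e-18) in the authors' deposited table. Among those that fell were the transcription factor Atf5 at -2.34 ± 0.18, the ER membrane protein Herpud1 at -2.37 ± 0.19, the cysteine-forming enzyme Cth at -2.01 ± 0.17 and the alanine aminotransferase Gpt2 at -1.62 ± 0.19 in the authors' deposited table. Atf4, which drives the 6 genes in textbook accounts, had a log2 change of 0.05 ± 0.29 there (adjusted p = 0.902 in the authors' deposited table). Its normalized counts were 1750 in WT A and 3989 in WT B, with KO A (2970) and KO B (2989) between them. Scaled to estimated totals limma called 27 of these targets higher and 2 lower, beside 58.7% and 7.57% of all genes. The core TGATGNAA was present in a promoter window of 9 of the 27 targets with one (33.3%), against 4.51% of 27025 genes. The elements of several of these genes are textbook examples. Of the 9, the authors' deposited table called Atf3 higher in KO (3.46), and Fgf21 (-3.09) and Herpud1 (-2.37) lower. Asns, Chac1, Pck2, Pycr1, Slc7a11 and Trib3 were not called. Whether the element bears on any of these changes was not tested.

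Genes of the TORC1 complex and its nutrient inputs, the pathway that REDD1 and Sestrin 2 hold back, were called both higher and lower. At the authors' size factors, of 26 tested, 4 were higher, 8 were lower and 14 did not pass, with a median of -0.28, beside 20.4% higher and 22.2% lower among all tested genes. Rheb, the GTPase that activates TORC1, had a log2 change of -0.91 ± 0.23 (SE, adjusted p = 4.08e-04), and the TORC1 substrates Rps6kb1 and Rps6kb2, the S6 kinases, of -0.80 ± 0.23 and -1.08 ± 0.28 in the authors' deposited table. Deptor, an inhibitor of TORC1, stood at -0.99 ± 0.18 and Sec13 of the GATOR2 complex at -1.03 ± 0.21, while the Rag GTPase Rragd rose by 2.71 ± 0.55 in the authors' deposited table. The counts turned with scaling: limma at the authors' size factors called 4 higher and 8 lower, and limma scaled to estimated totals called 16 of the list higher and 0 lower, beside 58.7% and 7.57% of all genes.

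**Figure D4:**
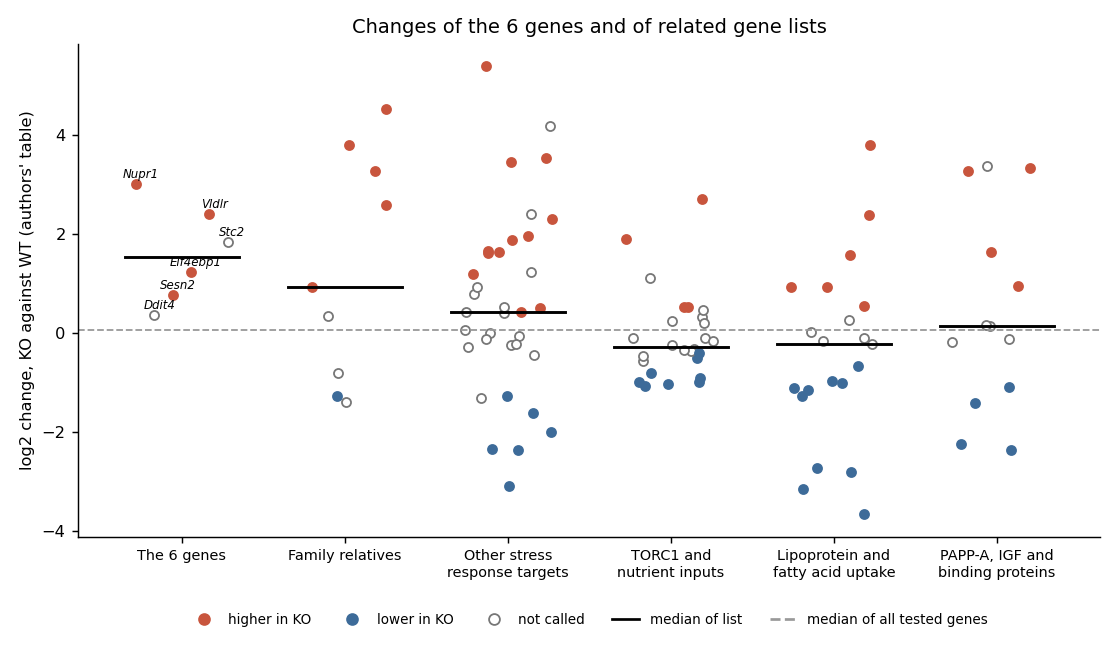
Log2 change of KO against WT in the authors' table (y axis) for the 6 genes and for each tested gene of the related lists (x axis), with filled points for called genes, open points for the others, black lines for list medians and a dashed line for the median of all tested genes (0.046). The 6 genes lie between 0.37 and 3.01, and each of the other lists spreads on both sides of 0.

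Genes of lipoprotein and fatty acid uptake were called in both directions. Of 21 tested, 6 were higher in KO, 10 were lower and 5 did not pass (median -0.22), beside 20.4% higher and 22.2% lower among all tested genes. The fatty acid transport proteins Slc27a2 and Slc27a5 stood at -3.16 ± 0.17 and -2.72 ± 0.22, the fatty acid binding protein Fabp1 at -2.81 ± 0.23 and Apoe at -1.16 ± 0.17 in the authors' deposited table. Counts were recovered for 18 of the 21, and the other 3 were all lower in the authors' deposited table. Over the 18, limma called 6 higher and 7 lower at the authors' size factors (25.3% and 24% of all genes), and 10 and 4 when scaled to estimated totals (58.7% and 7.57%).

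In the stanniocalcin and PAPP-A pathway, which frees insulin-like growth factors from their binding proteins, 13 genes were tested. Of these 4 were higher, 4 were lower and 5 did not pass (median 0.13), beside 20.4% and 22.2% among all tested genes. Igf1, the liver's growth factor, had a log2 change of -2.37 ± 0.22 (SE, adjusted p = 6.28e-26) and its binding protein Igfbp4, the substrate of PAPP-A, of -2.25 ± 0.18 in the authors' deposited table. Igfbp2 stood at -1.43 ± 0.21 and the growth hormone receptor Ghr at -1.10 ± 0.19, while Igfals, the partner that holds IGF complexes in blood, rose by 3.33 ± 0.32 and Igfbp7 by 0.94 ± 0.22 in the authors' deposited table. Pappa itself had a mean normalized count of 3.34 and was not called (adjusted p = 0.213 in the authors' deposited table).

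The genes with library profiles most like those of the 6 were found by the distance between centred log2 normalized counts over the 4 libraries, among 9021 genes with a mean of at least 100. Nearest to Nupr1 were Hr (distance 0.080), Frk (0.19) and Ptpn14 (0.20). Nearest to Sesn2 were Ppard (0.056), Tagap1 (0.063) and BC048403 (0.081), and nearest to Eif4ebp1 were Gm38431 (0.017), Ppfibp1 (0.036) and Fmnl2 (0.038). Fam129a (0.23) and Zfand2a (0.25) were among the closest to Vldlr. Nearest to Ddit4 were Col15a1 (0.43), Ap5b1 (0.43) and Vtcn1 (0.47), and the low counts of Stc2 were nearest to Cnn2 (0.32), Slc13a3 (0.32) and Stmn1 (0.34). With 4 libraries such likeness is a description of these libraries and no more.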

How the data were processed

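Liver input and m6A IP libraries of tunicamycin-treated WT and KO mice were analysed from the files the authors deposited. The authors used HISAT2 2.1.0 and DESeq2 1.18.1 with build mm10, per the submitters' processing notes. Counting, annotation and peak calling were not given in the sources used here. In the deposited table the mean is a signal, counts divided by size factors and averaged over 4 input libraries. Its fold change and standard error are log2 values and the Wald statistic is a score, per the file headers. Its p-values and adjusted p-values are the authors', with an adjusted value for 14257 of 16133 genes. Each deposited peak has an enrichment, read here as a ratio of IP over input, and a number from 0 to 1, read here as a p-value. The last block of every peak with several blocks ran 1 base past the peak's end and was ended there.

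Each deposited mean is a sum of 4 whole counts times a step of each library, and the lowest means gave the steps (size factors 1.25, 1.18, 0.927 and 0.743). Counts were found for 15952 genes (98.9%), and the 181 genes with a mean above 10000 were left out. For 5594 genes the mean alone decided, and for 10350 the log2 change and SE chose among solutions, with refitted changes within 4.50e-05. On simulated data 1372 of 1372 genes were recovered. Those data were made with the same formulas that the recovery inverts, so they do not test its match to the authors' own fit. For 14076 genes log2(normalized count + 1) was tested with limma 3.58.1 and its trend option. On simulated libraries with 200 changed genes among 14076 it called 32% at a log2 change of 1, 98% at 2 and 0.0144% of unchanged genes. The simulation gave all genes 1 fixed dispersion, and in the data limma called 6940 genes. Its rates therefore do not measure power or error in these data. Peaks were compared block by block on the same strand, and an overlap of 1 base counted as shared. Promoter windows and gene models are RefSeq's (GRCm38.p6).

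The 6 genes and all lists were chosen with earlier results of these data known. By rule the text names the 6 genes, Mettl14, 9 relatives, up to 6 called genes with the smallest adjusted p per list, and 3 genes most like each of the 6. Some genes that this rule takes are not reported here. Genes beyond it were named after their values were seen: Atf4, Pappa, Krt7, and the genes named for the promoter element. Alternatives were other scalings, a pseudocount of 10, a mean of at least 10, a stricter threshold, single libraries left out, and stricter peak and overlap rules. Scaling to estimated totals was added after seeing the data.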

Additional observations from a re-analysis of the deposited data

How the results depend on the processing

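The 4 calls (Nupr1, Vldlr, Eif4ebp1, Sesn2) held in limma with the authors' size factors, trimmed-mean scaling, a pseudocount of 10, a mean of at least 10 and both total-count scalings. No paired analysis was possible because the recovered libraries carry no replicate number. Without single libraries, limma gave 2.81 to 3.23 for Nupr1, -0.24 to 1.36 for Ddit4, 0.59 to 0.91 for Sesn2, 1.17 to 1.27 for Eif4ebp1, 1.91 to 2.96 for Vldlr and 1.02 to 2.46 for Stc2. Without KO A or KO B limma called 0 of 14076 genes (5065 and 5409 at an unadjusted p under 0.05), so that the 4 genes also lost their calls there (adjusted p = 0.0614 to 0.148). Changes there were 2.95 and 3.08 for Nupr1, 0.91 and 0.59 for Sesn2, 1.25 and 1.19 for Eif4ebp1, and 2.37 and 2.50 for Vldlr. Those fits take their spread from the 2 WT libraries, and the lone KO library is assumed to vary alike. The fits without WT A or WT B take theirs from the 2 KO libraries, which leaves out the gap between the WT libraries. Leaving out single libraries, 0 to 5 of the 6 genes were called higher, with recovered totals 5 (background 41.5% higher and 13.4% lower) and with estimated totals 6. Without single libraries calls (higher, then lower) ran from 0 to 5 and 0 to 2 for relatives, 0 to 19 and 0 to 5 for other stress response targets, 0 to 5 and 0 to 10 for the TORC1 list, 0 to 6 and 0 to 7 for lipid uptake and 0 to 6 and 0 to 3 for the PAPP-A list. Reversals were Ddit4 at -0.24 without WT A and Mettl14 at 0.32 with estimated totals. Ddit4 (1.38) passed with estimated totals, and Stc2 passed with recovered totals (2.096) and estimated totals (2.40).

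With recovered totals 21 other stress response targets were higher and 2 lower, 9 TORC1 genes higher and 5 lower, and 8 lipid uptake genes higher and 6 lower. Of all genes 41.5% were higher and 13.4% lower in that fit. With estimated totals these list counts were 27 and 2, 16 and 0, and 10 and 4, beside 58.7% and 7.57% of all genes. In the PAPP-A list 5 were higher and 2 lower with estimated totals. Limma called 3 other stress response targets lower with the authors' size factors, trimmed-mean scaling, a pseudocount of 10 or a mean of at least 10, where 4 abundant ones could not be entered. An adjusted p under 0.01 in the authors' deposited table left 2 relatives and 2 TORC1 genes higher. With peaks at or above the median enrichment of their list, 2 WT peaks and 1 KO peak remained, all in 1 gene, Sesn2, with 2 WT and 1 KO peaks shared. A deposited p under 0.01 and a stricter overlap left the peak counts within 1.5 times. Depth limits Stc2, Stc1, Lrp8 and Nupr1l, and IP depth is unknown. The cause of these shifts was not tested.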
